A study of Homo sapiens with 4 samples.

Results

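The Notch receptors, ligands and target genes examined here were the receptors NOTCH1, NOTCH2, NOTCH3 and NOTCH4, the ligands JAG1, JAG2, DLL1 and DLL4, and the target transcription factors HES1 and HEY1. They were taken by gene name from the deposited expression table and make up 10 of the 57815 genes listed. JAG1 appears under a pair of Ensembl IDs, so the 10 genes occupy 11 entries, and the entry ENSG00000101384 was used because the other, ENSG00000270408, was at or below 0.00211 FPKM in both cell lines. Total RNA of 2 untreated human cell lines grown in DMEM with fetal bovine serum was sequenced. MDA-MB-231 comes from a triple-negative breast cancer, and LM2-4175, a line first isolated from MDA-MB-231, metastasizes strongly to the lung. Each line was sequenced in 2 libraries, which the authors combined in 1 FPKM (fragments per kilobase, scaled to the mapped fragments of the library) with a lower and an upper bound for each gene. The labels do not say whether the libraries came from separate cultures. As no value per library was examined, none of the differences has a replicate check and no p-value is given. The cells were grown alone, without stromal or endothelial cells that could present ligands to them.

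Notch receptors are cut at the cell surface after they bind a ligand of the Jagged or Delta-like family on a neighbouring cell. ADAM10 makes the first ligand-dependent cut, and gamma-secretase then releases the intracellular domain. This domain enters the nucleus, binds the DNA-binding protein RBPJ together with a Mastermind-like coactivator and switches on genes such as HES1 and HEY1. HES and HEY proteins are repressors of the basic helix-loop-helix class. In breast epithelium the pathway takes part in luminal cell fate, and its receptors and JAG1 have been studied widely in triple-negative breast cancer.

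The call of a difference asked for a change of at least 1.5-fold on the scale of FPKM + 1, for bounds that did not overlap between the lines, and for a mean of at least 0.5 FPKM. The filter left 13911 genes in all and 7 of the 10 Notch genes. NOTCH4, DLL1 and DLL4 were below it. HEY1 was the only one of the 7 called, in the higher direction. Among all genes tested 9.27% were called in either direction, 4.67% higher and 4.61% lower, so 1 of 7 is close to the share of all genes and says nothing particular about the members. The median log2 fold change of the 7 genes was -0.04, and the median of all genes tested was also -0.04. The change was at least 1.5-fold with overlapping bounds for NOTCH1, NOTCH3 and JAG2. By the fold without the bounds, 4 of the 7 genes were past it, beside 22.1% of all genes (10.3% higher and 11.8% lower). By the bounds without the fold, HEY1 alone was called, beside 9.39% of all genes (4.74% higher and 4.64% lower).

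The labelled cell type was checked against marker genes. VIM, which encodes the mesenchymal filament vimentin, had 1355 FPKM in MDA-MB-231 and 1768 FPKM in LM2-4175. The hormone receptor genes ESR1 and PGR were at most 0.033 FPKM. ERBB2, also expected to be low in a triple-negative line, was not near 0, with 34.9 and 22.8 FPKM. Of 8 endothelial markers, 7 were found in the table and their summed level went from 46.7 FPKM in MDA-MB-231 cells to 73.9 FPKM in LM2-4175 cells, most of it from the adhesion gene ESAM. Their part in the Notch values was not tested. KDR and TIE1 were called higher, while CDH5, VWF, TEK and CLDN5 were at most 0.0857 FPKM. PTPRC and CD3E, which mark white blood cells, were at most 0.0767 FPKM, while the monocyte marker CD14 had 1.17 and 1.75 FPKM and CD68, which is not limited to white blood cells, had 107 and 178.9 FPKM. Neither was called. Among markers of such breast cancer lines SPARC was called higher, from 13.6 FPKM in MDA-MB-231 to 231.7 FPKM in LM2-4175. EPCAM, usually low in them, was called lower but was not near 0, with 12.3 FPKM in MDA-MB-231 and 4.93 FPKM in LM2-4175.

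**Figure D1:**
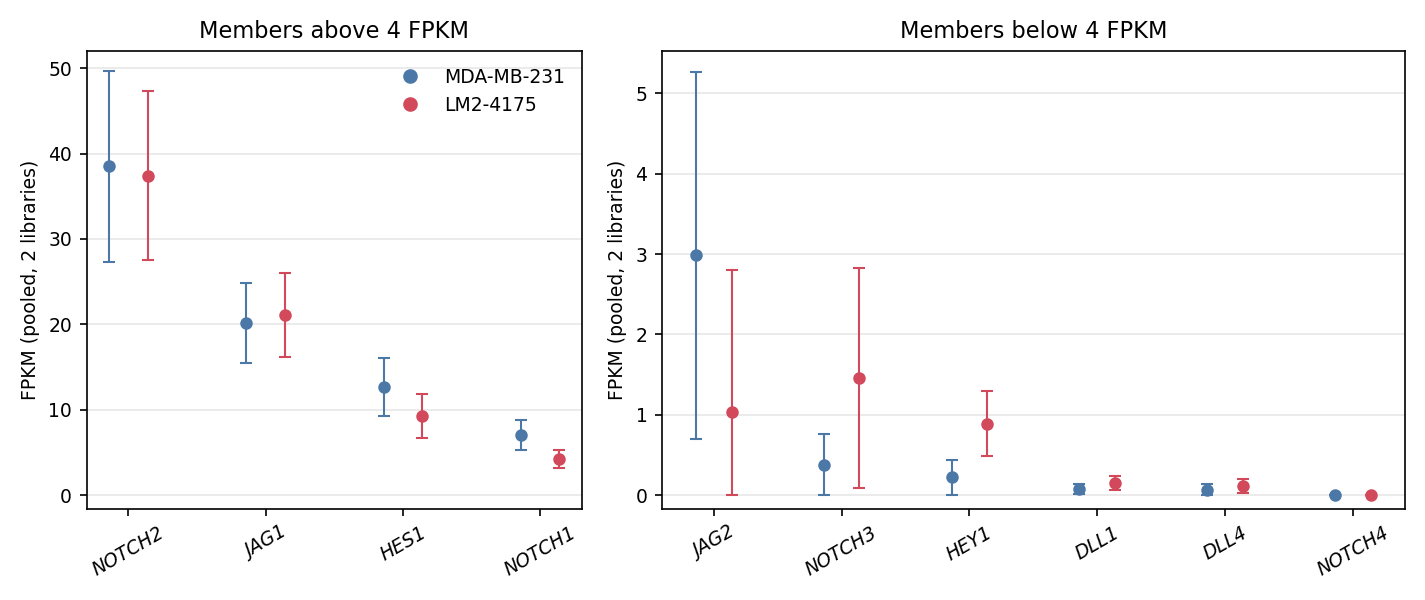
Level of each Notch gene as the authors' pooled FPKM in MDA-MB-231 (blue) and LM2-4175 (red), on linear axes with separate scales for the 4 genes above 4 FPKM and the 6 genes below, and with the authors' lower and upper bounds as bars. HEY1 is the only gene whose bars do not overlap between the cell lines. NOTCH4 is listed at 0 in both, with bounds of 0.

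Receptors were measured first. NOTCH2 was the most abundant of the 10 genes in both cell lines, with 38.5 FPKM (bounds of 27.3 and 49.7) in the MDA-MB-231 cells beside 37.4 FPKM (bounds of 27.5 and 47.3) in the LM2-4175 cells. Its bounds in the cell lines lay almost on top of each other. The ratio of the levels, LM2-4175 over MDA-MB-231, was 0.971, and the bounds allow ratios from 0.553 to 1.73. In LM2-4175, 79.3% of the genes tested had a lower FPKM than NOTCH2. The gene (ENSG00000134250) spans chr1:120454176-120643366 of GRCh37 on the minus strand, and its canonical transcript has 34 exons.

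Some reads of NOTCH2 cannot be told from those of its partial copies, the NOTCH2NL genes, which repeat its first exons. Of the 11276 windows of 150 bases in the NOTCH2 transcript, 101 (0.896%) occurred letter for letter in a NOTCH2NL transcript, and 653 (5.79%) did so with up to 2 mismatches. All of the latter lay between bases 111 and 1009 of the 11425 bases. The entry NOTCH2NL had 16.5 FPKM (8.83 to 24.2) and 17.2 FPKM (8.98 to 25.5). Its log2 fold change was 0.06, beside -0.04 for NOTCH2.

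NOTCH1 had 7.05 FPKM in MDA-MB-231 (5.28 to 8.83) and 4.26 FPKM in LM2-4175 (3.20 to 5.31). The level was 1.66 times as high in MDA-MB-231, and the log2 fold change was -0.62. The upper bound in LM2-4175 and the lower bound in MDA-MB-231 overlapped by only 0.0342 FPKM, so the difference missed the call by the width of that overlap. NOTCH1 (ENSG00000148400, chr9:139388885-139440500 of GRCh37, minus strand) lies in a stretch of genes that were mostly lower in LM2-4175. Of 47 other protein-coding genes tested within 1 Mb, 42 had a log2 fold change below 0 and 14 were called lower, with a median of -0.545, against 4.61% called lower among all genes. Around NOTCH4 only 3 such neighbours were tested, beside the 47 of NOTCH1. Of these 3, 2 were called lower, with a median of -1.06. NOTCH4 itself was listed at 0, and whether genes around it lack usable values was not tested. Around DLL1 all 8 were below 0 and 1 was called lower, with a median of -0.553. The part of the neighbourhood in these values was not tested.

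NOTCH1 was also the receptor for which the study lists qPCR primers. Its qPCR was run in LM2-4175 cells after knock-down of LMO4 by siRNA, on predicted LMO4 targets and genes of epithelial-mesenchymal transition. That assay thus did not compare LM2-4175 with MDA-MB-231. The primers are shown because they fix which part of the transcript the assay reads. Capitals are not used, as no base in them is singled out.
NOTCH1 forward primer: gaggcgtggcagactatgc
NOTCH1 reverse primer: cttgtactccgtcagcgtga
Both primers lie in exon 3 of the 34 exons of the canonical transcript, the forward primer at chr9:139418315-139418333 (GRCh37, minus strand) and the reverse primer at chr9:139418194-139418213 (plus strand). They bound 140 bases, and each matched transcripts of NOTCH1 alone among the genes of GENCODE v44. The FPKM of NOTCH1 covers the whole gene, and none of its windows of 150 bases occurred in a transcript of another gene.

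NOTCH3, a receptor best known from vascular smooth muscle and studied in breast cancer, was the low receptor that differed most. MDA-MB-231 cells had 0.372 FPKM (0 to 0.765) and LM2-4175 cells 1.46 FPKM (0.0878 to 2.83). The ratio was thus 3.92, with 0.84 as the log2 fold change. The bounds overlapped by 0.677 FPKM, so this difference is not larger than the uncertainty that the authors' bounds give to the value. NOTCH4, a receptor of endothelial cells, was listed at 0 in both cell lines. An exact 0 in such a table can be a failed estimate, and its level was therefore only recorded as listed at 0.

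Because FPKM is scaled to transcript length, levels can be added over the receptors. The 4 receptors summed to 45.9 FPKM in MDA-MB-231 cells beside 43.1 FPKM in LM2-4175 cells. NOTCH2 made up 83.8% and 86.7% of it, NOTCH1 15.4% and 9.87%, and NOTCH3 0.809% and 3.38%. The level of NOTCH2 was 5.46 times that of NOTCH1 in MDA-MB-231 and 8.79 times in LM2-4175.

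**Figure D2:**
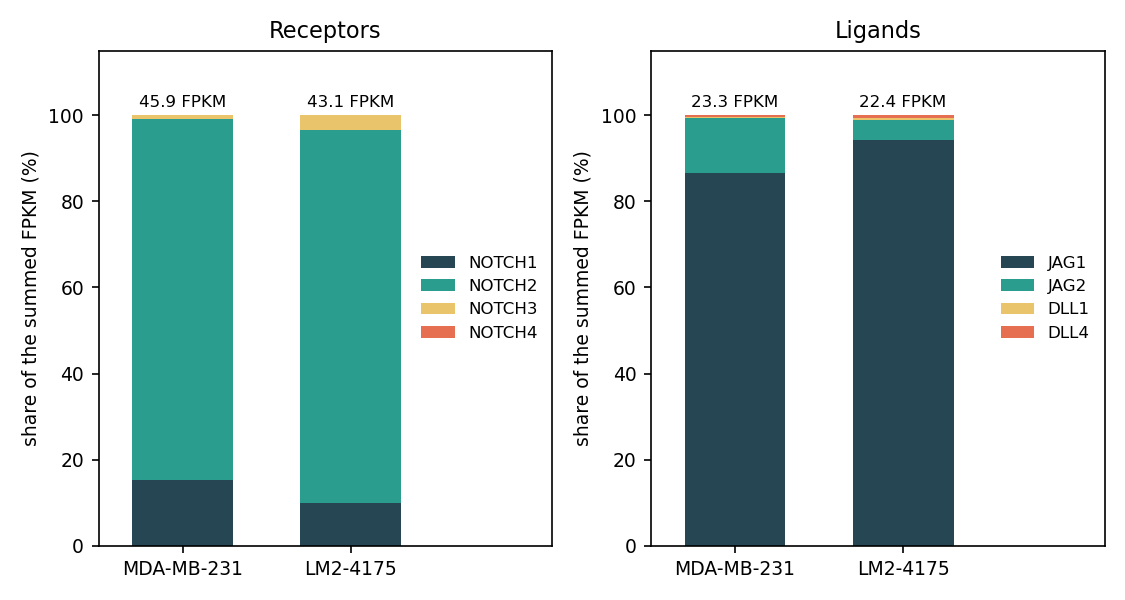
Share of each gene (%) in the summed FPKM of the 4 receptors (left) and of the 4 ligands (right) in each cell line, with the sum in FPKM above each bar. NOTCH2 is the largest block of the receptors, at 83.8% and 86.7%, and JAG1 the largest of the ligands, at 86.6% and 94.2%.

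Among the ligands, JAG1 was by far the most abundant. MDA-MB-231 cells had 20.2 FPKM (15.5 to 24.9) and LM2-4175 cells 21.1 FPKM (16.2 to 26.0). These levels were nearly the same, with a ratio of 1.05, and the bounds allow ratios from 0.653 to 1.68. JAG1 (chr20:10618332-10654647 of GRCh37, minus strand) shares 3.29% of its exon bases with a lncRNA on the opposite strand.

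JAG2, the other Jagged ligand, stood at 2.98 FPKM (0.702 to 5.27) in MDA-MB-231 cells but at 1.03 FPKM (0 to 2.81) in LM2-4175 cells. Its log2 fold change of -0.97 was the largest of the 7 genes on the scale of FPKM + 1, while the ratios of HEY1 and NOTCH3 without the added 1 were larger than that of JAG2. Its bounds were wide and overlapped by 2.10 FPKM. In LM2-4175 the upper bound lay 172% above the value, where the median over genes with a mean of 1 to 5 FPKM was 55.6%. A lncRNA on the same strand shares 7.33% of the exon bases of JAG2 (chr14:105607319-105635161, minus strand).

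The Delta-like ligands were near 0. DLL1 had 0.0771 FPKM (0.0198 to 0.134) and 0.151 FPKM (0.0629 to 0.240), and DLL4, the Delta-like ligand of sprouting endothelium, had 0.0671 FPKM (0 to 0.136) and 0.116 FPKM (0.0285 to 0.204). Bounds overlapped for both genes. FAM120B on the opposite strand shares 9.69% of the exon bases of DLL1. The 4 ligands summed to 23.3 and 22.4 FPKM, of which JAG1 held 86.6% in the former line and 94.2% in the latter. Per unit of FPKM, NOTCH2 stood at 1.91 and 1.77 times the level of JAG1.

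Of the target genes, HES1 was the third most abundant of the 10 genes. MDA-MB-231 cells had 12.6 FPKM (9.26 to 16.0) and LM2-4175 cells 9.30 FPKM (6.72 to 11.9). The log2 fold change was -0.41, which did not reach 1.5-fold. The bounds overlapped by 2.61 FPKM, and they allow ratios from 0.420 to 1.28. HES1 (ENSG00000114315) spans chr3:193853937-193856521 of GRCh37 on the plus strand in 4 exons, and no exon of another gene overlaps it.

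HEY1, the other target, was called higher. MDA-MB-231 cells had 0.222 FPKM (0.00549 to 0.439) and LM2-4175 cells 0.891 FPKM (0.487 to 1.29). The ratio of these levels was 4.01. On the scale of FPKM + 1 the log2 fold change was 0.63, because that scale understates the change of low genes. The bounds were apart by 0.0480 FPKM. HEY1 passed the filter through its level in LM2-4175, at a mean of 0.557 FPKM just above the limit of 0.5, and 7.49% of the genes tested were below HEY1 in that line. At a mean of at least 1 FPKM it was not tested, and with a fold threshold of 2 it was not called. The level of HES1 was 56.8 times that of HEY1 in MDA-MB-231 and 10.4 times in LM2-4175.

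The order of the levels was NOTCH2, JAG1, HES1 and NOTCH1 in both cell lines. In MDA-MB-231 these were followed by JAG2, NOTCH3, HEY1, DLL1, DLL4 and NOTCH4, and the bounds of neighbours in the order overlapped for JAG1 and HES1 and for all neighbours from JAG2 down. In LM2-4175 NOTCH3, JAG2 and HEY1 came next, with bounds that overlapped between neighbours, and then DLL1 and DLL4, which overlapped each other.

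RBPJ, the factor through which Notch acts on DNA, binds sequences of the type GTGNGAA. The promoters of HES1 and of its relative HES4 are shown because both hold a pair of such sequences facing each other. Each is given from 120 bases before the RefSeq start up to the start, in the direction of transcription, with GTGNGAA on either strand in capitals, so that the second of each pair reads TTCNCAC.
HES1 promoter: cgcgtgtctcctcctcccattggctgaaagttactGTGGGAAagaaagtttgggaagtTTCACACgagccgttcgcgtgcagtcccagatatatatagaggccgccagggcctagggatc
HES4 promoter: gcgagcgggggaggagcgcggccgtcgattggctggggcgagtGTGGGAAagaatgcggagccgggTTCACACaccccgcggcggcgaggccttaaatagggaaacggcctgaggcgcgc
The stretches lie at chr3:193853817-193853936 (plus strand) and chr1:935478-935597 (minus strand) of GRCh37. In HES1 the sequences begin 85 and 62 bases before the start, and in HES4 77 and 54 bases before it. The gap between them is 16 bases in both genes.

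RefSeq promoters on GRCh38.p14, from 250 bases before to 50 bases after the start, were given for 8 of the 10 Notch genes, all but DLL1 and HEY1. Of these 8, HES1 was the only one with GTGNGAA on either strand, and it held it 2 times. Among 35116 promoters, 13.8% held it at least once and 0.572% held it on both strands. The facing pair with a gap of 16 bases was found in 3 of them (0.00854%), which were HES1, HES4 and ITIH4. This arrangement was searched for after it had been seen in HES1. The shorter letters TGGGAA, which are part of GTGGGAA, were found in 24.0% of promoters and in no other of the 8. HES5 and HEY2 each held GTGNGAA 2 times, HEYL held it once, and HES2, HES6, HES7 and NRARP did not hold it in this window. These matches are letters in a sequence and not measured binding.

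The 3 genes with the facing pair all had log2 fold changes below 0, as did 7585 of the 13911 genes tested, and none was called. Their shared direction therefore says nothing particular about the pair. For HES4 the levels were 2.99 FPKM (1.83 to 4.15) and 2.41 FPKM (1.45 to 3.37). Its log2 fold change of -0.23 stood beside the -0.41 of HES1 and the -1.42 of ITIH4. ITIH4 had a mean of 2.34 FPKM, and its bounds overlapped. Of the HES and HEY genes that hold GTGNGAA in another arrangement, HEYL had 0.613 and 0.723 FPKM, and HES5 and HEY2 were at most 0.0563 FPKM. None of these was called.

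Further genes of the pathway were grouped by role. The lists held 78 genes, of which 65 passed the filter, 3 were called higher and 2 lower. That share of 7.69% stands beside 9.27% of all genes, and the median log2 fold change was -0.11 beside -0.04. The counts given below for each role stand beside the same shares of all genes, 4.67% called higher and 4.61% called lower.

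**Figure D3:**
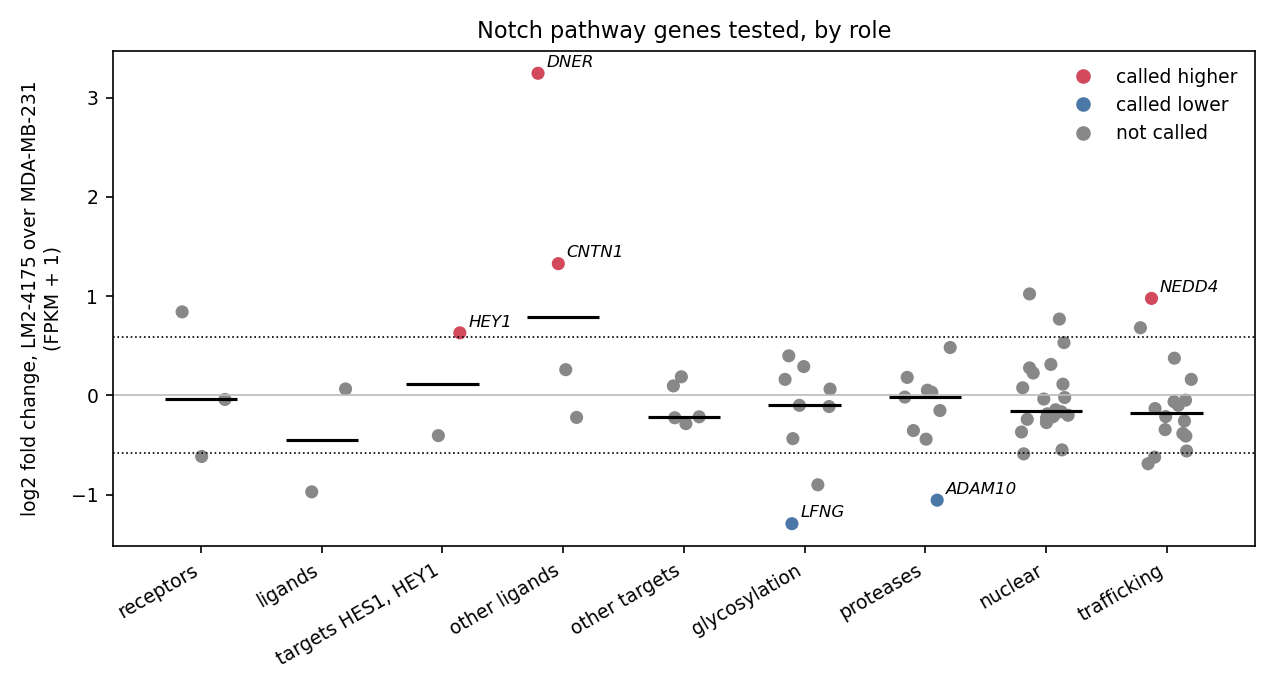
Log2 fold change on the scale of FPKM + 1, LM2-4175 over MDA-MB-231, of each Notch gene and further pathway gene that passed the filter, in columns by role, with a bar at the median of each column and dotted lines at 1.5-fold. DNER, CNTN1, HEY1 and NEDD4 (red) were called higher and LFNG and ADAM10 (blue) lower. No gene of the column of other targets or of the nuclear factors was called.

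Of 10 further genes listed beside the targets, most of them of the HES and HEY families, 5 were tested and none was called. Whether each of them responds to Notch in these cells was not tested. HES6, the most abundant of this list, had 4.59 and 3.81 FPKM. HES2 had its largest change, with 1.82 and 1.31 FPKM and a log2 fold change of -0.28. Neither promoter held GTGNGAA in the window examined.

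Ligand-like proteins held the largest difference. Of 8 genes, 4 were tested and 2 were called, both higher, beside 9.27% of all genes called and 4.67% called higher. With 4 genes tested, this count says nothing particular about the list. DNER, a neuronal transmembrane protein with EGF-like repeats that has been described as a Notch ligand, rose from 0.599 FPKM (0.258 to 0.940) to 14.2 FPKM (9.52 to 18.8). The ratio was 23.6, with 3.24 as the log2 fold change. The bounds allow a ratio of 10.1 at the least. Of 8 neighbouring protein-coding genes tested within 1 Mb of DNER, 1 was called higher. CNTN1, a cell adhesion molecule of neurons also described as a Notch ligand, rose from 0.0602 FPKM (0 to 0.252) to 1.66 FPKM (1.02 to 2.30), and its log2 fold change was 1.33. CNTN1 passed the filter through its level in LM2-4175. JAG1 was 33.7 times as abundant as DNER in MDA-MB-231 and 1.49 times in LM2-4175. MFAP2, a microfibril protein, had 21.4 and 18.2 FPKM, and DLK2 had 6.61 and 8.11 FPKM. Neither was called, and DLL3 and DLK1 were at most 0.035 FPKM.

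Of the 9 enzymes that put sugars on the receptor, 1 was called. LFNG encodes a fringe enzyme, which extends O-fucose on the EGF-like repeats and thereby shifts the choice of ligand. It fell from 11.1 FPKM (8.07 to 14.1) to 3.92 FPKM (2.65 to 5.20), and its log2 fold change was -1.29. MFNG, another fringe enzyme, had 1.20 FPKM (0.458 to 1.95) and 0.181 FPKM (0 to 0.464), with bounds that overlapped. RFNG, the remaining fringe gene, had 16.6 and 17.4 FPKM. LFNG made up 38.4% of the summed fringe FPKM in MDA-MB-231 and 18.3% in LM2-4175. POFUT1, which adds the O-fucose, was the most abundant of the enzymes, with 61.4 FPKM (42.4 to 80.3) and 45.1 FPKM (32.5 to 57.7), and was not called.

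Of the 9 proteases that cut the receptor, 1 was called. ADAM10 fell from 79.4 FPKM (57.9 to 100.9) to 37.7 FPKM (27.4 to 48.0), and its log2 fold change was -1.06. The bounds were 9.90 FPKM apart. Its relative ADAM17 had 15.0 FPKM (10.4 to 19.7) and 15.6 FPKM (11.4 to 19.8). ADAM10 was thus 5.28 times as abundant as ADAM17 in MDA-MB-231 and 2.41 times in LM2-4175. The gamma-secretase genes APH1A (84.2 and 65.6 FPKM) and NCSTN (82.0 and 60.1 FPKM) were the most abundant of the list and were not called. FURIN, which cuts the receptor during its maturation, had 32.9 FPKM (24.2 to 41.6) and 46.3 FPKM (34.3 to 58.3), also not called.

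**Figure D4:**
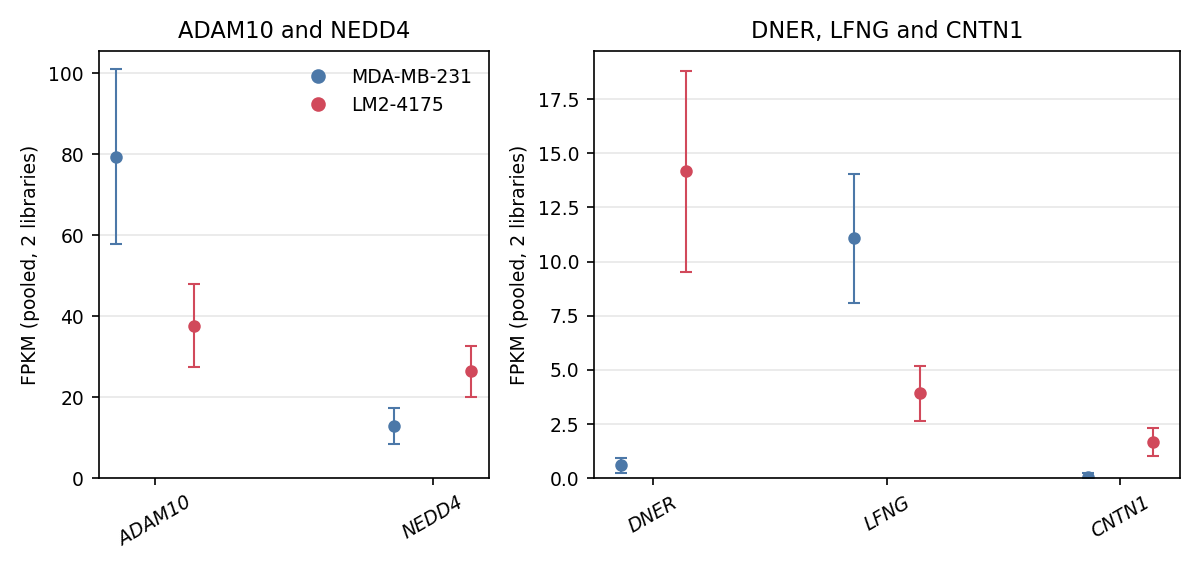
Authors' pooled FPKM of the 5 further pathway genes that were called, in MDA-MB-231 (blue) and LM2-4175 (red), with the authors' lower and upper bounds as bars and linear axes that start at 0. ADAM10 and LFNG are lower in LM2-4175, NEDD4, DNER and CNTN1 are higher, and no pair of bars overlaps.

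None of the 22 nuclear factors tested was called by the fold and the bounds on the deposited FPKM. RBPJ had 78.8 FPKM (45.4 to 112) and 71.1 FPKM (43.5 to 98.8), and its coactivator gene MAML1 had 16.2 and 13.2 FPKM. HDAC2 and HDAC1, histone deacetylases of many corepressor complexes, had the highest means of this list, at 114 and 98.8 FPKM and at 86.3 and 91.1 FPKM, although SNW1 was above HDAC1 in MDA-MB-231 at 93.2 FPKM. The largest differences were in low genes. TLE2, a Groucho-type corepressor, had 0.429 FPKM (0 to 0.956) and 1.90 FPKM (0.944 to 2.86), so its bounds overlapped by 0.0124 FPKM, and MAML3 had 0.677 and 1.86 FPKM.

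Of the 16 ubiquitin ligases and endocytic regulators tested, 1 was called. NEDD4, a ubiquitin ligase with many substrates besides Notch, rose from 12.9 FPKM (8.49 to 17.4) to 26.4 FPKM (20.2 to 32.7), and its log2 fold change was 0.98. Its relative NEDD4L, the most abundant of the list, had 92.7 and 88.6 FPKM. The adaptor gene NUMBL had 10.4 FPKM (7.13 to 13.7) and 6.09 FPKM (4.24 to 7.94), and EPN1, whose product epsin takes part in ligand endocytosis, had 77.9 FPKM (59.8 to 95.9) and 50.2 FPKM (38.7 to 61.7). Both had bounds that overlapped.

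**Figure D5:**
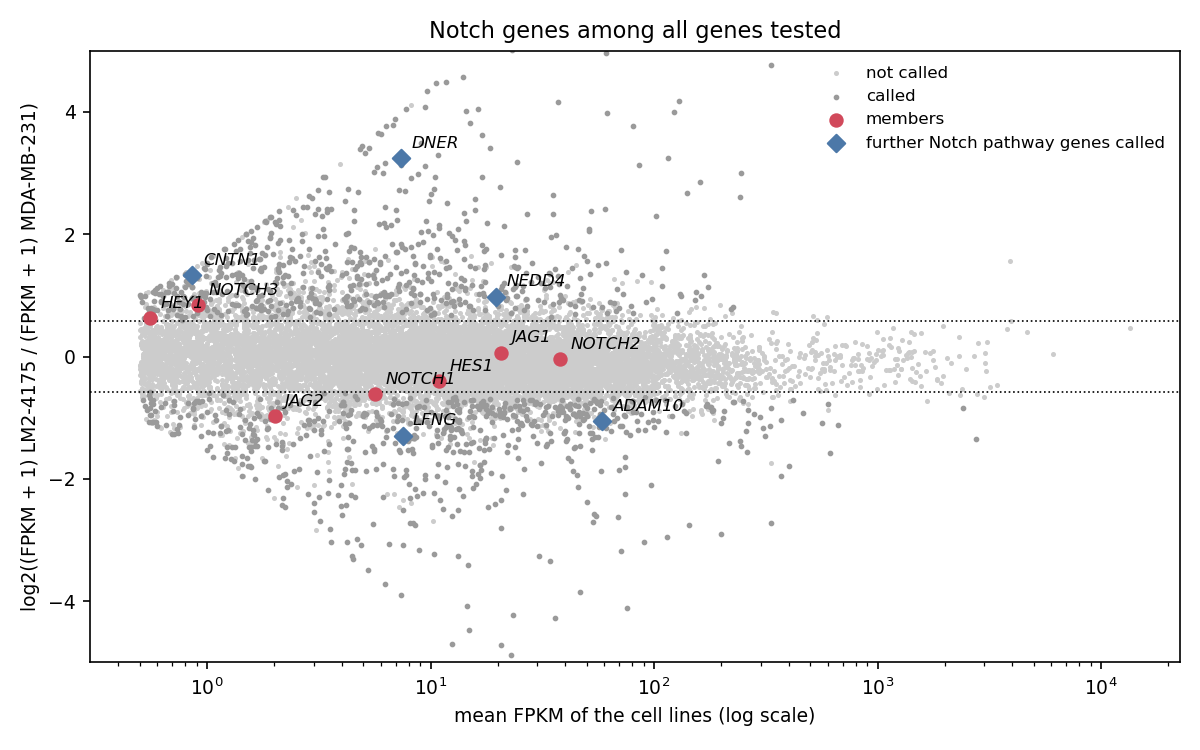
Log2 fold change on the scale of FPKM + 1 against the mean FPKM (log axis) of all 13911 genes tested, with called genes in dark grey, the 7 Notch genes tested as red circles and the 5 further pathway genes called as blue diamonds. Dotted lines mark 1.5-fold, 16 genes lie outside the plotted range, and NOTCH2, JAG1 and HES1 sit between the lines while DNER stands above them at 3.24.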

How the data were processed

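The authors aligned paired reads of 150 bases to hg19 with TopHat2 and quantified GENCODE v19 genes as FPKM with Cufflinks, and per the labels Cuffdiff was run. The deposited table gives each gene 1 FPKM per cell line, a status, and bounds below and above the value. The library normalization, the use of strand and the spread that the bounds cover are not given in the sources used here, and read depth is not in the table. Over all genes the sums were 632944 FPKM (MDA-MB-231) and 598147 FPKM (LM2-4175). The columns hold the libraries combined, so the study's q-value rule was replaced by bounds that do not overlap, with its 1.5-fold threshold kept. Relative to the value, the bounds are widest for low genes, grouped here by the mean FPKM of both lines. For means of 0.5 to 1 FPKM the upper bound lay a median of 97.4% (MDA-MB-231) and 90.4% (LM2-4175) above the value. For means of 5 to 50 FPKM it lay 34.6% and 34.7% above it. A gene of a low group can be near 0 in a single line.

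Fold changes were computed as log2 of FPKM + 1 in Python 3.11.15 (NumPy 2.4.6, pandas 2.3.3, Matplotlib 3.10.9), for genes with status OK in both lines. The members and lists were chosen with earlier results of these data known. Named are all members, the pathway genes called, and in each list the 2 most abundant and the 2 with the largest change. RBPJ, MAML1, ADAM17, DLL3, DLK1 and the HES and HEY genes were added for their role, after their values were seen. Some genes of the lists are counted but not reported here by name. Positions, exon overlaps on either strand and transcripts came from GENCODE v44 lifted to GRCh37, the same assembly as hg19 for these chromosomes. Promoters came from RefSeq on GRCh38.p14. Only the stretches shown for HES1 and HES4 were matched letter for letter to GRCh37.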

Additional observations from a re-analysis of the deposited data

How the results depend on the processing

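The count of members called, 1 higher and 0 lower, was 0 higher at a mean of at least 1 FPKM or with a fold threshold of 2, and 2 higher and 2 lower by the fold alone, and it was unchanged under the other alternatives run (pseudocount 0.1 or none, no filter, bounds alone, scaling to the same sum, centring). By the fold alone, 6 further pathway genes were higher and 6 lower in place of 3 and 2, and their other counts stayed within 1.5 times of these. Scaling both cell lines to the same sum, that of TPM, moved ratios of FPKM by 0.08 on the log2 scale. It also raised the values of both lines while the added 1 stayed the same, so the added 1 weighed less. Fold changes with the pseudocount therefore moved unequally (NOTCH3 from 0.84 to 1.11, HEY1 from 0.63 to 0.88, JAG2 from -0.97 to -1.07). The split of all genes called moved with this scaling to 735 higher and 547 lower, from 649 and 641. TLE2, not called on the deposited FPKM, was called higher with it, at a log2 fold change of 1.32. The log2 fold change of NOTCH2, -0.04, became 0.0387 with this scaling and 0.0032 when centred on the median of all genes, with no call in any case. With NOTCH2 at its lower or upper bound its share of the receptor FPKM ranged from 78.6% to 87.0% (MDA-MB-231) and from 82.8% to 89.2% (LM2-4175), and for JAG1 among the ligands the shares were 83.2% to 88.8% and 92.6% to 95.3%. No paired analysis was possible because the table holds 1 combined value per cell line, and for the same reason no library could be left out. DNER, LFNG and ADAM10 were called under all 10 settings, and CNTN1 and NEDD4 under 9 of the 10. CNTN1 was not tested at a mean of at least 1 FPKM, and NEDD4 was not called with a fold threshold of 2.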

Other observations

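HES7, a HES gene known from the segmentation clock of the embryo, was below the filter with 0.0678 FPKM (0 to 0.186) for MDA-MB-231 cells but 0.661 FPKM (0.261 to 1.06) for LM2-4175 cells, and its bounds did not overlap. Without the filter it was called higher. Besides the genes called, 7 further pathway genes differed by at least 1.5-fold with overlapping bounds, 3 of them higher (TLE2, MAML3 and EPN2) and 4 lower (MFNG, NUMBL, EPN1 and TLE3).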
